A study of Eucalyptus urophylla with 24 samples.

Results

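The genes described here are the R2R3-type MYB transcription factors of Eucalyptus, chosen by their annotation. A gene was a member when its description named a transcription factor or repressor MYB with a number, a WER factor or a GAMYB factor, and genes described as MYB family or MYB1R1 were left out. The rule gave 49 of 26033 genes and used no expression value. A further 54 genes had the word myb elsewhere in their description, 45 of them as MYB-related, MYB-like or MYB family, and stayed outside. The 49 members lay on 11 chromosomes, and 6 were named as repressors. Transcripts were measured by RNA-seq in leaves of triploid and diploid Eucalyptus urophylla, a plantation hardwood, at 4 stages, namely terminal buds, young leaves near the shoot tip, mature leaves after full expansion, and senescent leaves. Each of the 8 groups had 3 libraries. The triploid arose by sexual polyploidization. The study's methods say that several clones were selected for the chlorophyll measurement and that RNA was taken from triploid and diploid clones, but not which clone or tree each library stands for. All triploid libraries carried one code in their labels and all diploid libraries another, so that ploidy and any other difference between the plants cannot be told apart, and the p-values measure only the spread between libraries. Levels are given as FPKM divided by a factor per library (scaled FPKM), and differences on the log2(scaled FPKM + 0.5) scale, which understates the change of genes with low values.

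R2R3 MYB proteins bind DNA through a pair of MYB repeats and form one of the largest families of plant transcription factors. Members act as switches of cell identity and of specialised metabolism. In Arabidopsis they decide between hair and hairless epidermal cells, turn anthocyanin and lignin genes on or off, start secondary walls and act in responses to hormones. Several work in a complex with a bHLH protein and the WD40 protein TTG1. The names used here were those of the closest annotated protein, so that a name shared by several genes marked relatedness and not a tested function, and reads of near-identical copies may have been split between them.

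By the Arabidopsis roles of their names, 8 members belonged to epidermal cell fate (4 WER, 3 MYB23, 1 MYB82), 6 were MYB114 genes of the flavonoid activators, and 9 were phenylpropanoid repressors or carried a repressor name (MYB3, MYB4, MYB5, MYB6). The MYB5 genes were listed there only by the word repressor in their descriptions, as the number MYB5 stood in the list of flavonoid activators. A further 5 belonged to secondary walls (MYB46, MYB86), 2 to cuticle and suberin (MYB30, MYB39), 3 to the endodermis (MYB36) and 8 to stress and hormone responses (7 MYB44, 1 MYB108). Of the rest, 2 were listed under cell division (MYB59 and its relative MYB48), 4 under anthers and GAMYB (MYB24, MYB35, 2 GAMYB), and 2 were MYB34 and MYB51. The deposited gene ontology terms placed 7 members among the 21 genes of trichome differentiation. They also placed 19 among the 176 genes of the response to salicylic acid and 14 among the 315 of the response to abscisic acid. On the chromosomes, 3 members stood close together on chromosome 3 of the E. grandis assembly: MYB23 (Eucgr.C00721, 12543074 to 12544883, minus strand), WER (Eucgr.C00724, 12600561 to 12602426, plus strand) and MYB114 (Eucgr.C00725, 12610417 to 12611860, minus strand). A pair of MYB114 genes, Eucgr.J01573 (19616219 to 19620560) and Eucgr.J01580 (19821348 to 19825509), lay on the minus strand of chromosome 10.

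Library totals ranged between 38395755 and 64400745 counts over the 22 libraries with a usable count column. The library factors differed between ploidies in a direction shared by most genes, by -0.199 in terminal buds, 0.014 in young, 0.357 in mature and 0.327 in senescent leaves (log2, triploid minus diploid), and all differences below are relative to that shift. In diploid plants, terminal bud library 3 and young leaf libraries 1 and 3 stood apart from the rest, with a spread of 0.261 to 0.354 around their group on the log2 scale, against 0.159 to 0.255 elsewhere. Summed markers followed the labelled stages: the 6 dividing cell genes stood at 400.2 scaled FPKM or more in every bud and young leaf library and at 75.5 or less in every mature and senescent leaf library. They also differed between ploidies. Senescence markers (11 genes) summed to 309.7 to 320.4 in triploid mature leaves and 1731.5 to 1924.1 in diploid mature leaves, and to 5580.5 to 5916.3 in triploid senescent leaves and 33370.5 to 38604.9 in diploid senescent leaves. Only 5 of the 11 genes were tested. In the triploid 1 was higher and 4 lower in mature leaves (median -0.70), where 30% and 34% of all genes were. In senescent leaves 0 were higher and 4 lower (median -1.24), against 29.5% and 31% of all genes. Between mature and senescent leaves 3 of the 5 rose and 2 fell in each ploidy. Mesophyll markers (17 genes) ranged over 2504.7 to 2854.4 in triploid senescent leaves and 5078.1 to 5894.8 in diploid senescent leaves. Dividing cell markers summed to 21.7 to 25.8 in triploid mature leaves and 58.3 to 65.0 in diploid mature leaves, although 2 of the 6 genes were higher in the triploid, 1 was lower and 3 did not pass the test (median 0.14). The part of these differences in the results on mature and senescent leaves was not tested, and in whole leaves fewer cells of a type and less RNA per cell cannot be told apart.

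Of the 49 members, 45 passed the filter of a mean of at least 0.5 scaled FPKM over the 24 libraries. The members at 1 scaled FPKM or more numbered 39, 36, 29 and 26 in triploid terminal buds, young, mature and senescent leaves. In the diploid series they numbered 40, 36, 30 and 25. The share of all genes at this level is not given here, and whether the fall is particular to the members was not tested. In each ploidy 20 of the 45 members (44.4%) were highest in terminal buds, where 34.7% of all tested genes were highest in the triploid and 31.3% in the diploid. Senescent leaves held the highest level of 14 members (31.1%) in the triploid and 12 (26.7%) in the diploid, against 29.9% and 25.5% of all tested genes. Both ploidies had their highest level at the same stage for 36 of 45 members (80%), against 66.6% of all tested genes. Summed over members, triploid libraries averaged 1058.2, 663.4, 486.3 and 850.1 scaled FPKM over the 4 stages and diploid libraries 1418.6, 875.4, 777.6 and 951.9. One gene, MYB44 (Eucgr.F00002), gave 8.51, 11.3, 36.6 and 40.4% of that sum in the triploid and 7.71, 12.3, 41.0 and 36.7% in the diploid.

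**Figure D1:**
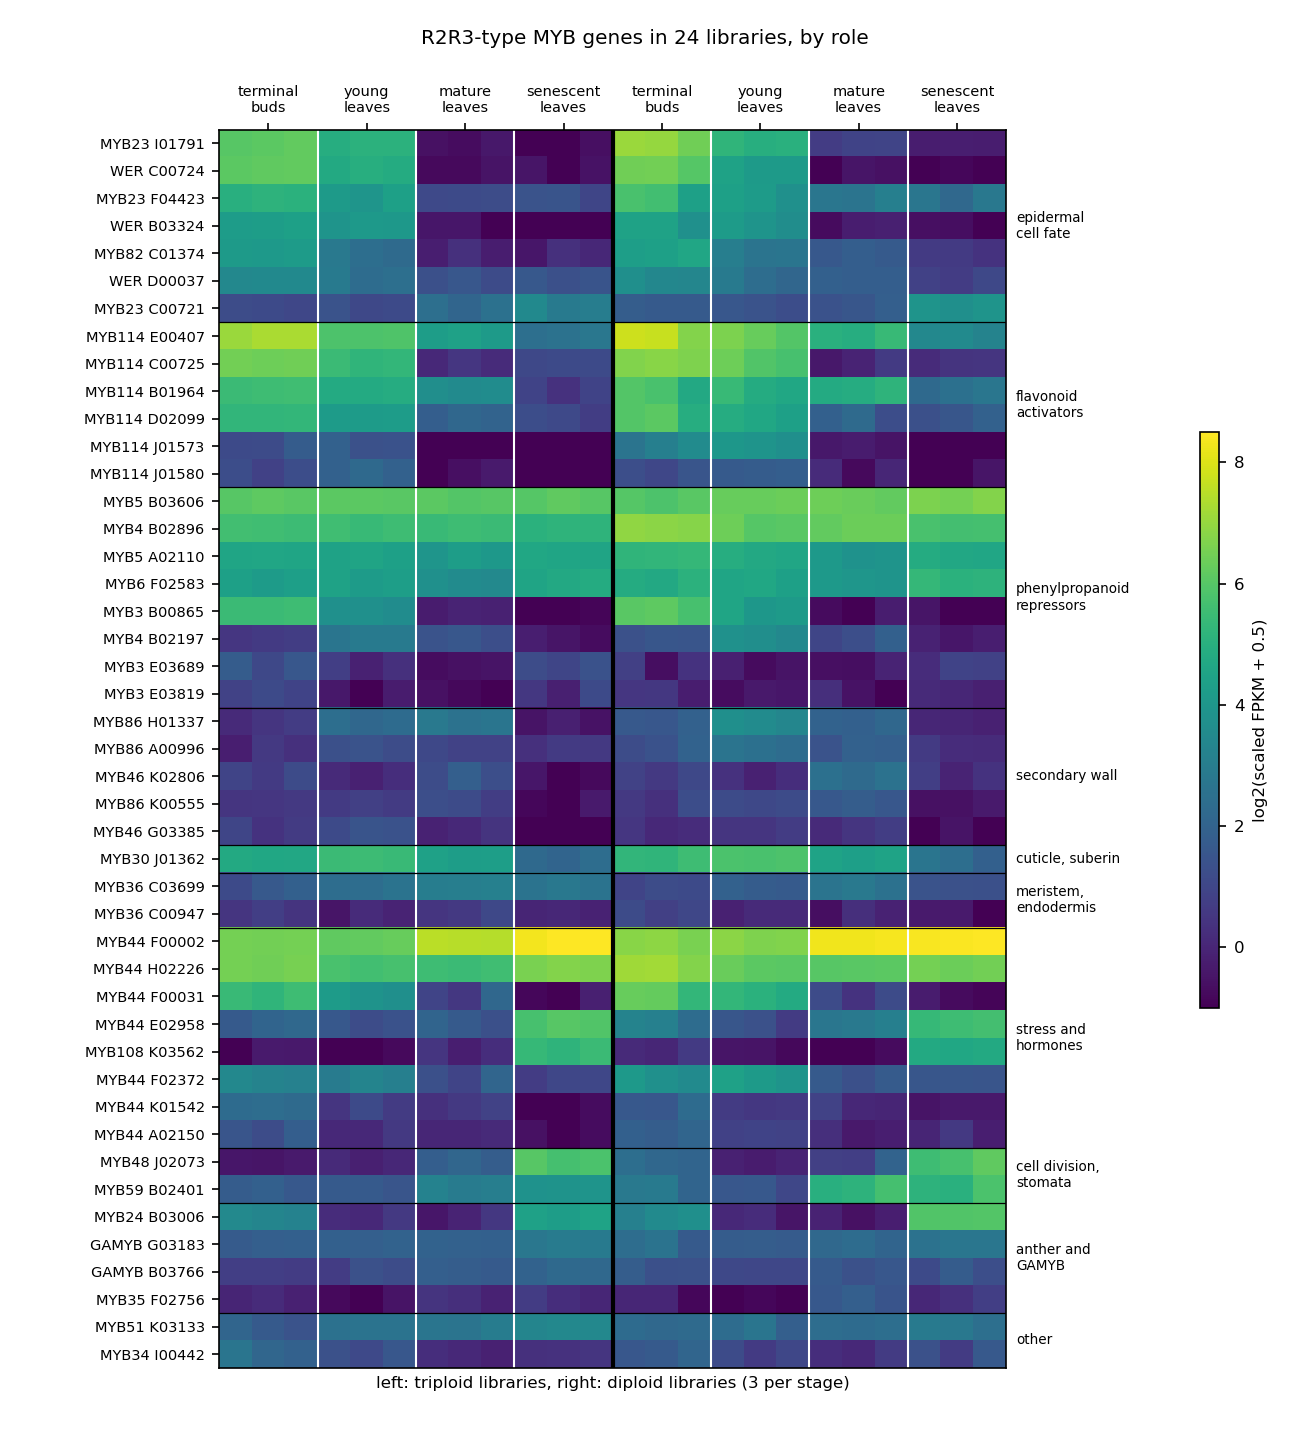
Level of the 45 tested members (rows, by role) in the 24 libraries (columns, triploid left and diploid right, 3 libraries per stage), coloured by log2(scaled FPKM + 0.5). Most epidermal fate and MYB114 genes are bright in terminal buds and dark in mature and senescent leaves, whereas MYB24, MYB48 and MYB108 are brightest in senescent leaves.

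Triploid and diploid leaves were compared at each stage. In terminal buds 2 of 45 members were higher and 20 were lower in the triploid at an adjusted p under 0.05 (limma, Benjamini-Hochberg over 19149 genes), where 21% of all genes were higher and 24.1% lower. In young leaves 3 were higher and 14 lower, against 9.94% and 12.2% of all genes (22.2% in either direction). The young leaf count moved with single libraries. In all 11 members were called without diploid young leaf library 1, and 10 without the 3 diploid libraries that stood apart. The shares of all genes without these libraries are not given here, and fewer libraries lower the power for every gene. In mature leaves 7 were higher and 18 lower, against 30% and 34% of all genes, and in senescent leaves 6 were higher and 15 lower, against 29.5% and 31%. These 2 splits moved with the scaling. With FPKM as deposited 10 were higher and 14 lower in mature leaves, and 12 higher and 12 lower in senescent leaves. The shift of 0.357 and 0.327 shared by most genes then stays in the values. The shares of all genes at that scale are not given here, so these splits have no background. In edgeR with TMM factors 8 were higher and 15 lower in mature leaves. The median difference over members was -0.41 for terminal buds and -0.16, -0.25 and -0.17 for young, mature and senescent leaves, beside -0.04, 0.00, -0.03 and -0.01 over all tested genes. Differences of at least 2-fold were fewer, with 1 member higher and 5 lower in terminal buds. The counts were 0 and 5 for young, 1 and 8 for mature and 1 and 5 for senescent leaves. The background for higher and lower at that size was 5.63% and 6.12%, 1.69% and 2.34%, 10.7% and 14.6%, and 11.5% and 11.3% of all genes at the same stages.

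**Figure D2:**
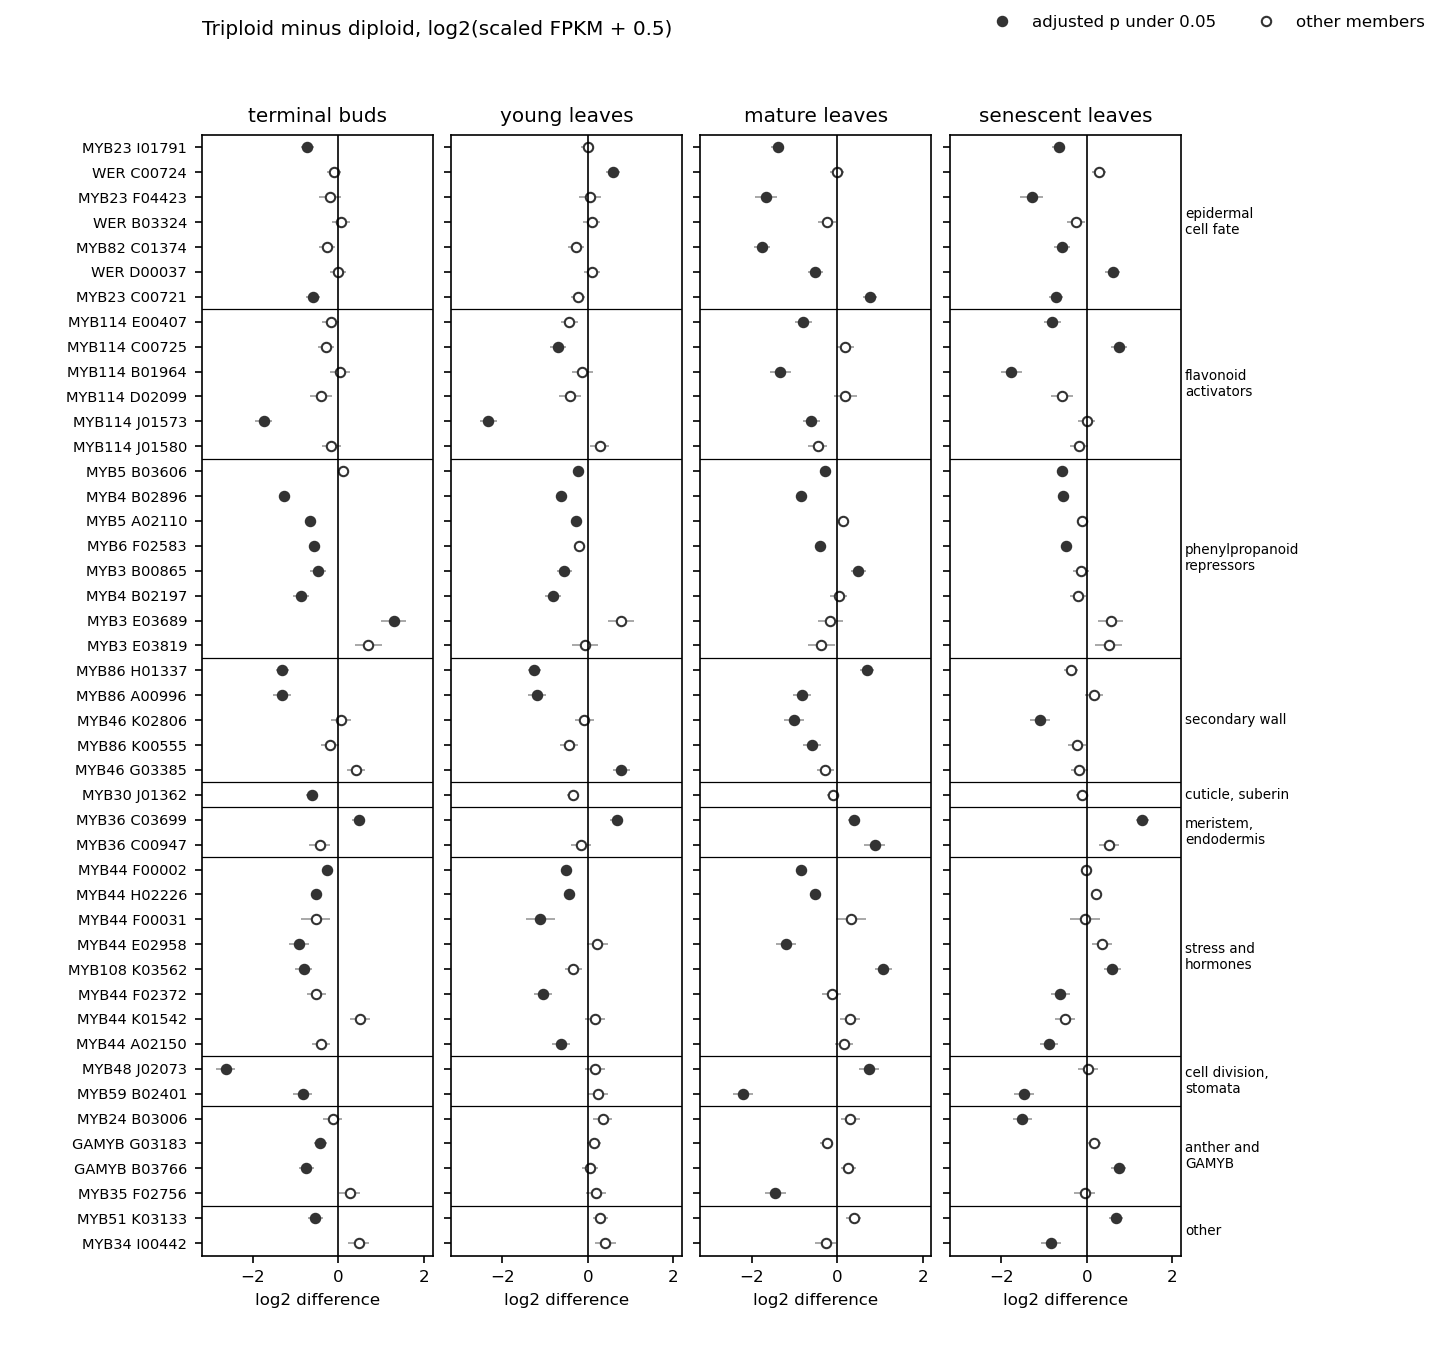
Difference between triploid and diploid libraries for the 45 tested members at each stage (x axis, log2 difference; points, limma estimate; grey bars, SE; filled points, adjusted p under 0.05). In terminal buds 20 of the 22 filled points lie left of 0, and the farthest is MYB48 at -2.64.

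Between neighbouring stages more members fell than rose. Young leaves against terminal buds gave 8 members higher and 23 lower in the triploid (31.1% and 35.1% of all genes) and 7 higher and 28 lower in the diploid (26.2% and 31.7%). The triploid split came closer to even with FPKM as deposited, at 16 higher and 19 lower. In edgeR with TMM factors it was 8 higher and 17 lower. The shares of all genes with FPKM as deposited are not given here, for this step or the next. Mature against young leaves gave 11 higher and 22 lower in the triploid (32.3% and 36.7%) and 10 higher and 22 lower in the diploid (32.3% and 37.9%, and 7 and 27 members with FPKM as deposited). Senescent against mature leaves gave 15 higher and 17 lower in the triploid (27.7% and 34.2%) and 12 higher and 19 lower in the diploid (24.4% and 36.9%). Median changes over members were -0.37, -0.38 and 0.02 for the 3 steps in the triploid, beside -0.03, -0.05 and -0.09 over all genes. In the diploid they were -0.69, -0.32 and -0.23, beside -0.05, -0.09 and -0.15.

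The epidermal fate genes were the clearest bud genes. MYB23 (Eucgr.I01791), whose Arabidopsis namesake acts in trichome formation, stood at 65.3, 67.8 and 74.3 scaled FPKM in triploid terminal buds and 134.4, 127.9 and 87.4 in diploid terminal buds. It reached 30.0, 33.9 and 34.0 in triploid young leaves and 36.3, 30.2 and 31.9 in diploid young leaves. In mature leaves it stood at 0.176, 0.119 and 0.263 in the triploid and 1.10, 1.38 and 1.41 in the diploid. Bud and mature leaf libraries of the ploidies did not overlap, while young leaf libraries did. The difference was -0.73 in terminal buds (SE 0.15, limma adjusted p = 0.0004) and -1.39 in mature leaves (SE 0.15, adjusted p = 9.5e-08). The fall between young and mature leaves was -5.60 in the triploid (adjusted p = 4.8e-18) and -4.21 in the diploid (adjusted p = 3.2e-16). WER (Eucgr.C00724), named for the Arabidopsis factor of hairless root epidermis, had 68.5, 72.4 and 74.9 in triploid buds and 85.7, 87.6 and 62.7 in diploid buds, and these overlapped (-0.11, adjusted p = 0.61). It had 27.1, 30.7 and 28.1 in triploid young leaves and 21.8, 17.4 and 17.7 in diploid young leaves. All triploid young leaf libraries stood above the diploid ones and the difference was 0.59 (SE 0.16, limma adjusted p = 0.013), but edgeR on the counts gave an adjusted p of 0.21 and a pseudocount of 0.1 gave 0.32. No mature or senescent leaf library exceeded 0.230.

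Other members of the group separated in mature leaves. MYB23 (Eucgr.F04423) had 1.66, 1.67 and 1.80 in triploid mature leaves and 6.06, 5.75 and 8.0 in diploid mature leaves, a difference of -1.67 (SE 0.26, limma adjusted p = 1.1e-05). MYB82 (Eucgr.C01374), a trichome factor in Arabidopsis, had 0.371, 0.762 and 0.338 in triploid mature leaves and 2.58, 3.11 and 2.70 in diploid mature leaves, a difference of -1.76 (SE 0.19, adjusted p = 1.0e-07). In terminal buds neither differed past the test. Of the 7 tested epidermal fate genes, 2 were lower in triploid buds (24.1% of all genes) and 1 was higher in triploid young leaves (9.94%). In both mature and senescent leaves 1 was higher and 4 lower. Of all genes 30% were higher and 34% lower in mature leaves, and 29.5% and 31% in senescent leaves. In both ploidies 5 of 7 fell between terminal buds and young leaves (35.1% of all genes in the triploid and 31.7% in the diploid) and 6 of 7 between young and mature leaves (36.7% and 37.9%).

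MYB23 (Eucgr.C00721) went the other way, being highest in senescent leaves, with 10.9, 6.86 and 7.66 in the triploid and 14.6, 12.7 and 14.8 in the diploid. In mature leaves it stood at 5.0, 3.77 and 5.39 in the triploid and 2.11, 2.42 and 3.16 in the diploid. The triploid was thus higher in mature leaves (0.77, SE 0.17, limma adjusted p = 0.00042) and lower in senescent leaves (-0.72, SE 0.17, adjusted p = 0.00092), with no overlap at either stage. Its rise between mature and senescent leaves was smaller in the triploid by 1.49 on the log2 scale (difference -1.49, SE 0.24, adjusted p = 7.9e-05). Of the 3 neighbours on chromosome 3, WER and MYB114 were thus bud genes and MYB23 a senescent leaf gene.

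**Figure D3:**
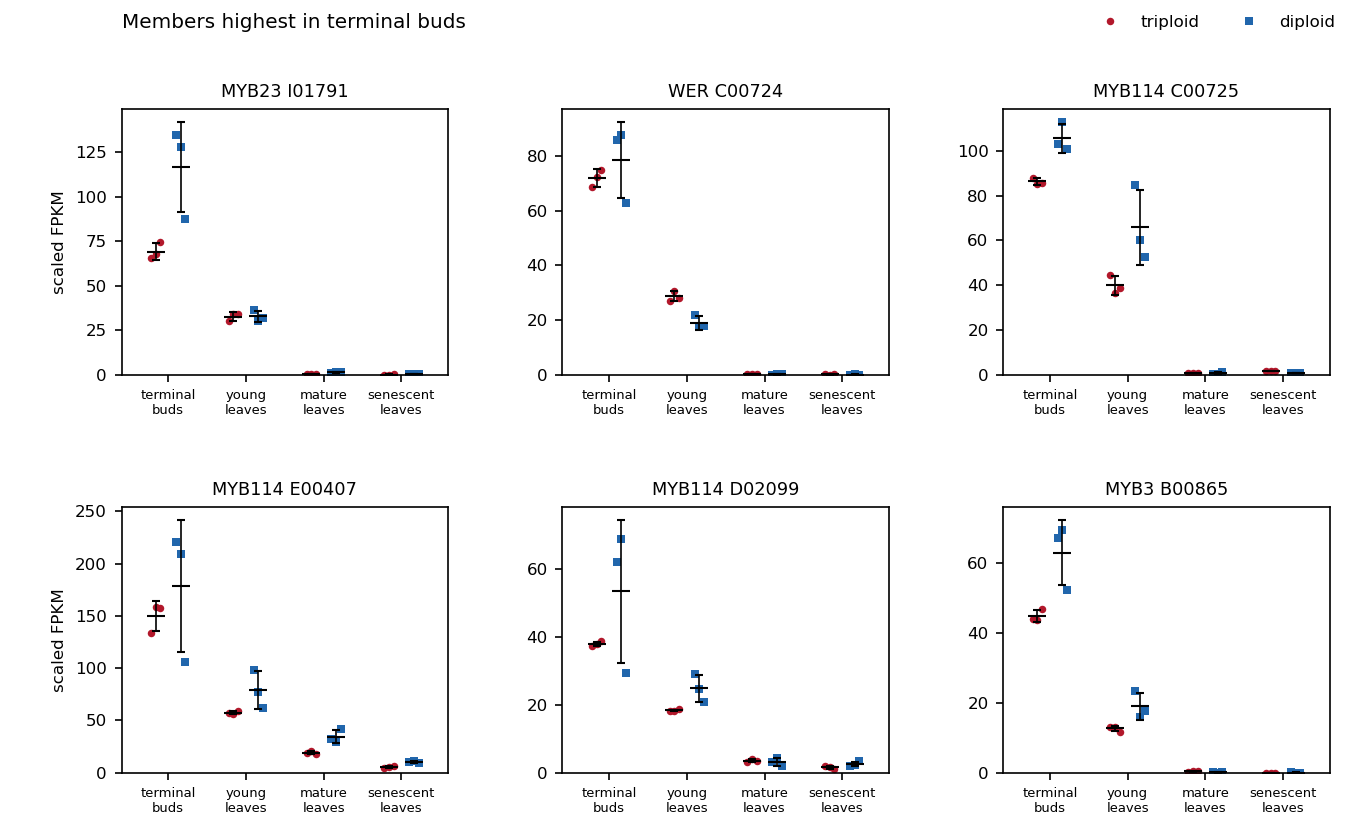
Scaled FPKM (y axis, linear, each panel on its own scale) of 6 members highest in terminal buds, by stage. Red circles are triploid libraries, blue squares diploid libraries, black lines means with SD (n = 3). Each gene has its highest mean in terminal buds in both ploidies, and diploid bud library 3 lies below the other two in all panels.

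MYB114 activates anthocyanin genes in Arabidopsis. The most abundant of the 6 MYB114 genes, Eucgr.E00407, had 133.6, 158.2 and 157.8 in triploid terminal buds and 221.0, 209.0 and 106.1 in diploid terminal buds, which overlapped (-0.18, limma adjusted p = 0.49). In mature leaves it had 19, 21.1 and 17.8 in the triploid and 31.9, 29.6 and 41.4 in the diploid, and in senescent leaves 4.99, 5.47 and 6.33 in the triploid and 10.3, 11.1 and 9.04 in the diploid. It was lower in the triploid at both late stages, by -0.80 (SE 0.20, adjusted p = 0.0018) and -0.81 (adjusted p = 0.0019). Eucgr.B01964 behaved alike, with 12.6, 11.3 and 11.7 in triploid mature leaves and 27.6, 29.2 and 35.3 in diploid mature leaves (-1.33, SE 0.24, adjusted p = 5.8e-05). In senescent leaves it had 1.40, 0.775 and 1.39 in the triploid and 4.19, 5.14 and 6.14 in the diploid (-1.76, SE 0.24, adjusted p = 2.3e-06). Eucgr.C00725, the neighbour of WER, had 44.4, 36.6 and 38.6 in triploid young leaves and 84.6, 60.3 and 52.5 in diploid young leaves (-0.69, SE 0.19, adjusted p = 0.013). It fell between young and mature leaves by -5.07 in the triploid and -5.96 in the diploid, to 1.05 or less in every mature leaf library.

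Of the pair on chromosome 10, one gene passed the test of ploidy and the other did not. MYB114 Eucgr.J01573 had 1.71, 1.75 and 2.87 in triploid terminal buds and 5.78, 8.10 and 11.4 in diploid terminal buds. In young leaves it had 3.38, 2.08 and 2.1 in the triploid and 16, 14.6 and 12.8 in the diploid. Every triploid library stood below every diploid library at both stages, by 3.99-fold in bud means (-1.75, SE 0.20, limma adjusted p = 6.3e-07) and 5.75-fold in young leaf means (-2.33, SE 0.20, adjusted p = 3.7e-08). In mature leaves no count was found in the 3 triploid libraries, against 9 to 16 counts in the diploid libraries (37 in all), so that the triploid was at least 12.1-fold lower, taking 3 counts over the group as the limit. Its neighbour Eucgr.J01580 had 1.86, 1.27 and 1.85 in triploid buds and 1.93, 1.52 and 2.33 in diploid buds (-0.17, adjusted p = 0.58). In young leaves Eucgr.J01580 had 3.36, 4.25 and 3.38 in the triploid and 2.77, 2.86 and 3.09 in the diploid (0.28, adjusted p = 0.4). Whether the 2 genes differed in this was not tested.

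As a group, the MYB114 genes summed to 323.8, 150.2, 35.5 and 10.0 over the 4 stages in the triploid and 395.6, 218.7, 69.5 and 18.8 in the diploid. Of the 6, the triploid was lower for 1 in buds and for 2, 3 and 2 in young, mature and senescent leaves, where 24.1%, 12.2%, 34% and 31% of all genes were lower. It was higher for 1 (Eucgr.C00725) in senescent leaves, where 29.5% of all genes were higher. Of the 4 partner genes, TTG1 and both EGL1 genes had their highest mean in terminal buds in each ploidy, while GLABRA 3 (Eucgr.E00624) averaged 1.08 scaled FPKM or less in every group. The WD40 gene TTG1 (Eucgr.A01400) averaged 61.6 scaled FPKM in triploid buds and 50.6 in diploid buds (0.28, SE 0.08, limma adjusted p = 0.0093), and the bHLH gene EGL1 (Eucgr.D02287) 38.8 in triploid buds and 26.1 in diploid buds (0.56, SE 0.14, adjusted p = 0.002). In mature leaves TTG1 averaged 22.4 in the triploid and 19.5 in the diploid, and Eucgr.D02287 averaged 1.69 in the triploid and 2.32 in the diploid (-0.34, SE 0.14, adjusted p = 0.031). The other EGL1 gene, Eucgr.D01841, lay on the opposite side there, at 0.941 in the triploid and 0.191 in the diploid (1.04, SE 0.18, adjusted p = 4.9e-05). In senescent leaves Eucgr.D02287 averaged 0.154 in the triploid and 0.563 in the diploid (-0.70, adjusted p = 0.00015). Eucgr.D01841 averaged 0.283 in the triploid and 0.039 in the diploid there (0.51, adjusted p = 0.022). These senescent leaf levels, and the diploid mature leaf mean of Eucgr.D01841, lay near or below the pseudocount of 0.5. The fitted differences then depend on the pseudocount. Of 57 genes of flavonoid enzymes, 43 were tested: 14 were higher and 11 lower in triploid buds (median 0.12), and the counts were 8 and 12 for young (-0.06), 20 and 12 for mature (0.40) and 6 and 12 for senescent leaves (-0.01). The shares of all genes higher and lower were 21% and 24.1% for buds and 9.94% and 12.2% for young leaves. They were 30% and 34% for mature and 29.5% and 31% for senescent leaves. The 57 genes summed on average to 3690.8, 3263.0, 1190.3 and 2336.3 scaled FPKM over the 4 stages in the triploid. In the diploid they summed to 2681.4, 3431.0, 1124.4 and 2861.8.

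Of the 8 tested members of the repressor list, which holds the MYB5 genes, 5 were lower in the triploid in terminal buds and 5 in young leaves. Of all genes 24.1% and 12.2% were lower at these stages. MYB4 (Eucgr.B02896), a repressor of cinnamate 4-hydroxylase in Arabidopsis, had 49.2, 47.6 and 45.2 in triploid buds and 122.2, 114.9 and 107.8 in diploid buds. In young leaves it had 47.8, 41.6 and 46.9 in the triploid and 84.1, 64.1 and 66.1 in the diploid. In mature leaves it had 43.2, 46.1 and 43.6 in the triploid and 74.6, 82.7 and 82.6 in the diploid, and in senescent leaves 32.7, 36.0 and 35.8 in the triploid and 53.6, 50.2 and 51.2 in the diploid. The triploid and diploid ranges did not overlap at any stage. The differences were -1.27, -0.64, -0.84 and -0.56 over the 4 stages (SE 0.09 each, limma adjusted p = 6.2e-10, 3.0e-05, 1.2e-07 and 1.9e-05), the bud means standing 2.43-fold apart.

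The other abundant member of the repressor list, MYB5 (Eucgr.B03606), was placed there by the word repressor in its description, and whether it represses was not tested. It varied little in the triploid, at 62.5 to 71.7 in its 12 libraries. In the diploid its bud libraries had 62.9, 57.4 and 66.9, its young leaf libraries 77.6, 77.2 and 81.3, its mature leaf libraries 85.2, 80.2 and 74.4 and its senescent leaf libraries 99.6, 91.6 and 106.7. The triploid was lower in senescent leaves by -0.57 (SE 0.08, limma adjusted p = 2.6e-06), with no overlap. Its mature leaf difference was -0.29 (adjusted p = 0.0024) and turned to 0.06 with FPKM as deposited. MYB6 (Eucgr.F02583) was lower in the triploid in buds (-0.58), mature leaves (-0.41) and senescent leaves (-0.48), with adjusted p of 0.00029, 0.0036 and 0.00092.

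MYB3 (Eucgr.B00865), also a repressor in Arabidopsis, followed the bud genes. It had 44.0, 43.7 and 46.8 in triploid buds and 67.1, 69.6 and 52.3 in diploid buds (-0.48, SE 0.18, limma adjusted p = 0.036), and 0.459 or less in every mature leaf library. A second MYB4 gene (Eucgr.B02197) was highest in young leaves, with 5.92, 6.80 and 7.06 in the triploid and 13.6, 12.3 and 10.4 in the diploid. Between terminal buds and young leaves it rose by 2.22 (SE 0.19, adjusted p = 3.4e-09) in the triploid and 2.17 (SE 0.19, adjusted p = 1.0e-08) in the diploid. MYB3 (Eucgr.E03689) was one of the 2 members higher in triploid buds, with 2.91, 1.61 and 2.46 in the triploid and 1.22, 0.145 and 0.815 in the diploid (1.29, SE 0.30, adjusted p = 0.0017), while edgeR gave an adjusted p of 0.056. Among the members of the repressor list 1 was higher in triploid buds and 0 in triploid young leaves (21% and 9.94% of all genes). The counts higher and lower were 1 and 3 for mature and 0 and 3 for senescent leaves (30% and 34%, and 29.5% and 31% of all genes). Of 104 monolignol enzyme and laccase genes 82 were tested, and 25 were higher and 18 lower in triploid buds (median 0.05), with 14 and 17 for young, 28 and 21 for mature and 34 and 20 for senescent leaves (median 0.18). Of all genes 21% were higher and 24.1% lower in buds, 9.94% and 12.2% in young, 30% and 34% in mature and 29.5% and 31% in senescent leaves.

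The secondary wall members were low throughout, at 12.9 scaled FPKM or less in every library. MYB86 (Eucgr.H01337) was highest in mature leaves of the triploid, at 6.74, 5.52 and 5.99, and in young leaves of the diploid, at 12.9, 11.4 and 9.89. Its triploid young leaf libraries had 4.94, 4.03 and 4.49, and its diploid mature leaf libraries 3.45, 3.27 and 3.99. In buds it had 0.582, 0.882 and 1.12 in the triploid and 2.66, 2.49 and 3.39 in the diploid. Relative to the diploid, the triploid was thus lower in buds (-1.31, SE 0.16, limma adjusted p = 1.1e-06) and young leaves (-1.25, SE 0.16, adjusted p = 6.9e-06) but higher after maturation (mature leaves, 0.69, SE 0.16, adjusted p = 0.00064). The change between young and mature leaves differed between ploidies by 1.94 (SE 0.22, adjusted p = 1.4e-06), with a rise of 0.40 in the triploid and a fall of -1.54 in the diploid.

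A second MYB86 gene (Eucgr.A00996) was also lower in triploid buds (-1.31, SE 0.21, limma adjusted p = 3.9e-05) and young leaves (-1.19, SE 0.21, adjusted p = 0.00034). Its young leaf libraries had 1.97, 2.21 and 1.81 in the triploid and 5.85, 5.25 and 4.58 in the diploid, with no overlap. MYB46, a master switch of secondary wall formation in Arabidopsis, had a pair of genes here. Eucgr.K02806 was highest in mature leaves, with 1.81, 3.14 and 1.93 in the triploid and 5.12, 4.39 and 5.52 in the diploid (-1.01, adjusted p = 0.00063). Eucgr.G03385 had 1.68, 2.25 and 2.1 in triploid young leaves and 0.871, 0.868 and 1.13 in diploid young leaves (0.78, SE 0.20, adjusted p = 0.0069), and edgeR gave 0.074. MYB86 (Eucgr.K00555) fell between mature and senescent leaves in the diploid by -2.15 (SE 0.21, adjusted p = 1.2e-08), and all 5 secondary wall members fell at this step in the diploid (36.9% of all genes) and 4 of 5 in the triploid (34.2%). Of the 6 genes of the secondary wall cellulose synthases CESA4, CESA7 and CESA8, 5 were tested, with 0 higher and 3 lower in triploid buds (median -0.62). The counts were 1 and 0 for young, 3 and 1 for mature (median 0.46) and 2 and 1 for senescent leaves. Of all genes 21% were higher and 24.1% lower in buds, and 9.94% and 12.2% in young leaves. The shares were 30% and 34% in mature and 29.5% and 31% in senescent leaves. Their sums were 31.3, 79.4, 91.9 and 37.1 over the 4 stages in the triploid and 60.7, 73.8, 104.6 and 37.6 in the diploid.

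MYB30 (Eucgr.J01362), which in Arabidopsis acts on very-long-chain fatty acids and the defence response, was highest in young leaves, with 43.6, 45.4 and 42.7 in the triploid and 56.0, 53.9 and 56.9 in the diploid. It fell between mature and senescent leaves by -2.11 (SE 0.14, limma adjusted p = 1.5e-11) in the triploid and -2.12 (SE 0.14, adjusted p = 1.6e-11) in the diploid. Between the ploidies it differed past the test in buds, at 27.1, 24.9 and 25.7 in the triploid and 37.6, 37.0 and 46.7 in the diploid (-0.63, SE 0.14, adjusted p = 0.00087). At the same late step, 18 of 30 tested wax and cutin enzyme genes (41 in all) fell in each ploidy, while 3 rose in the triploid and 4 in the diploid. Their medians were -1.41 in the triploid and -1.38 in the diploid. Of all genes 34.2% fell and 27.7% rose in the triploid, and 36.9% fell and 24.4% rose in the diploid.

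MYB36 directs the Casparian strip of the root endodermis in Arabidopsis. MYB36 (Eucgr.C03699) was the member called higher in the triploid at all 4 stages. It had 1.72, 2.63 and 3.27 in triploid buds and 1.44, 1.83 and 1.67 in diploid buds, which overlapped, and 4.70, 4.81 and 5.67 in triploid young leaves and 3.37, 2.88 and 2.70 in diploid young leaves. In mature leaves it had 7.75, 7.87 and 8.25 in the triploid and 5.77, 6.73 and 5.39 in the diploid, and in senescent leaves 5.72, 6.40 and 5.61 in the triploid and 2.23, 2.09 and 2.01 in the diploid. Ranges were apart at the last 3 stages. The differences were 0.47, 0.67, 0.39 and 1.3 (SE 0.15 each, limma adjusted p = 0.014, 0.0026, 0.027 and 3.0e-07), and the mature leaf one was lost in DESeq2 (adjusted p = 0.082). The gene (75510339 to 75512410, minus strand of chromosome 3) overlaps another MYB36 gene, Eucgr.C03700, on the opposite strand. The study's methods name a stranded kit, but reads of the 2 cannot be told apart if counting did not use strand, although only 22 counts were assigned to Eucgr.C03700 over 22 libraries.

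The stress and hormone group held the most abundant members. MYB44 acts in abscisic acid responses and stomatal closure in Arabidopsis, and its 7 genes here had unlike stage patterns. MYB44 Eucgr.F00002 had 180.7, 178.4 and 175.3 in triploid mature leaves and 316.7, 310.5 and 329.2 in diploid mature leaves. In senescent leaves it had 318.7, 354.7 and 357.6 in the triploid and 342.0, 343.9 and 361.9 in the diploid. The mature leaf libraries were far apart (-0.84, SE 0.08, limma adjusted p = 1.8e-08), and the senescent leaf libraries overlapped (-0.02, adjusted p = 0.82). Between mature and senescent leaves the triploid rose 1.93-fold in means (0.94, SE 0.08, adjusted p = 7.2e-10), and the step differed between ploidies by 0.81 (SE 0.11, adjusted p = 1.3e-05). In young leaves it was also lower in the triploid, at 71.4, 74.5 and 78.6, than in the diploid, at 115.8, 102.0 and 104.3 (-0.52, SE 0.08, adjusted p = 5.9e-05).

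MYB44 Eucgr.H02226 was lower in the triploid at the first 3 stages, with 91.6, 86.4 and 92.5 in triploid buds and 142.6, 146.4 and 106.1 in diploid buds, and 46.7, 44.5 and 47.4 in triploid mature leaves and 65.4, 66.9 and 69.2 in diploid mature leaves. In senescent leaves it had 96.2, 106.7 and 102.1 in the triploid and 90.5, 82.6 and 88.2 in the diploid. The differences were -0.53, -0.45 and -0.53 (SE 0.10 each, limma adjusted p = 0.00019, 0.0024 and 8.7e-05) and 0.22 in senescent leaves (adjusted p = 0.06). MYB44 Eucgr.E02958 was a senescent leaf gene, with 52.4, 64.5 and 60.5 in the triploid and 40.9, 46.4 and 50.7 in the diploid. In mature leaves it had 3.63, 2.76 and 1.97 in the triploid and 6.08, 6.64 and 8.04 in the diploid (-1.20, SE 0.24, adjusted p = 0.00016). It rose at this step 21.2-fold in triploid means (4.21, SE 0.24, adjusted p = 1.4e-12) and 6.65-fold in diploid means (2.65, SE 0.24, adjusted p = 2.8e-09).

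By contrast, MYB44 Eucgr.F00031 and Eucgr.F02372 were genes of buds and young leaves. Eucgr.F00031 had 18.1, 14.4 and 12.7 in triploid young leaves and 38.8, 32.9 and 27.6 in diploid young leaves (-1.11, SE 0.34, limma adjusted p = 0.023), and at most 0.381 in senescent leaves. Eucgr.F02372 had 7.30, 9.35 and 8.09 in triploid young leaves and 20.9, 17.5 and 14.6 in diploid young leaves (-1.05, SE 0.22, adjusted p = 0.0016). Both were about 2-fold lower in triploid young leaves (2.2-fold and 2.14-fold in means). Of the 8 tested stress and hormone members, 0 were higher and 4 lower in triploid buds, and the counts were 0 and 5 for young, 1 and 3 for mature and 1 and 2 for senescent leaves. Of all genes 21% were higher and 24.1% lower in buds, and 9.94% and 12.2% in young leaves. The shares were 30% and 34% in mature and 29.5% and 31% in senescent leaves. At the late stages the lower counts were near that share, while the higher counts lay below it.

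**Figure D4:**
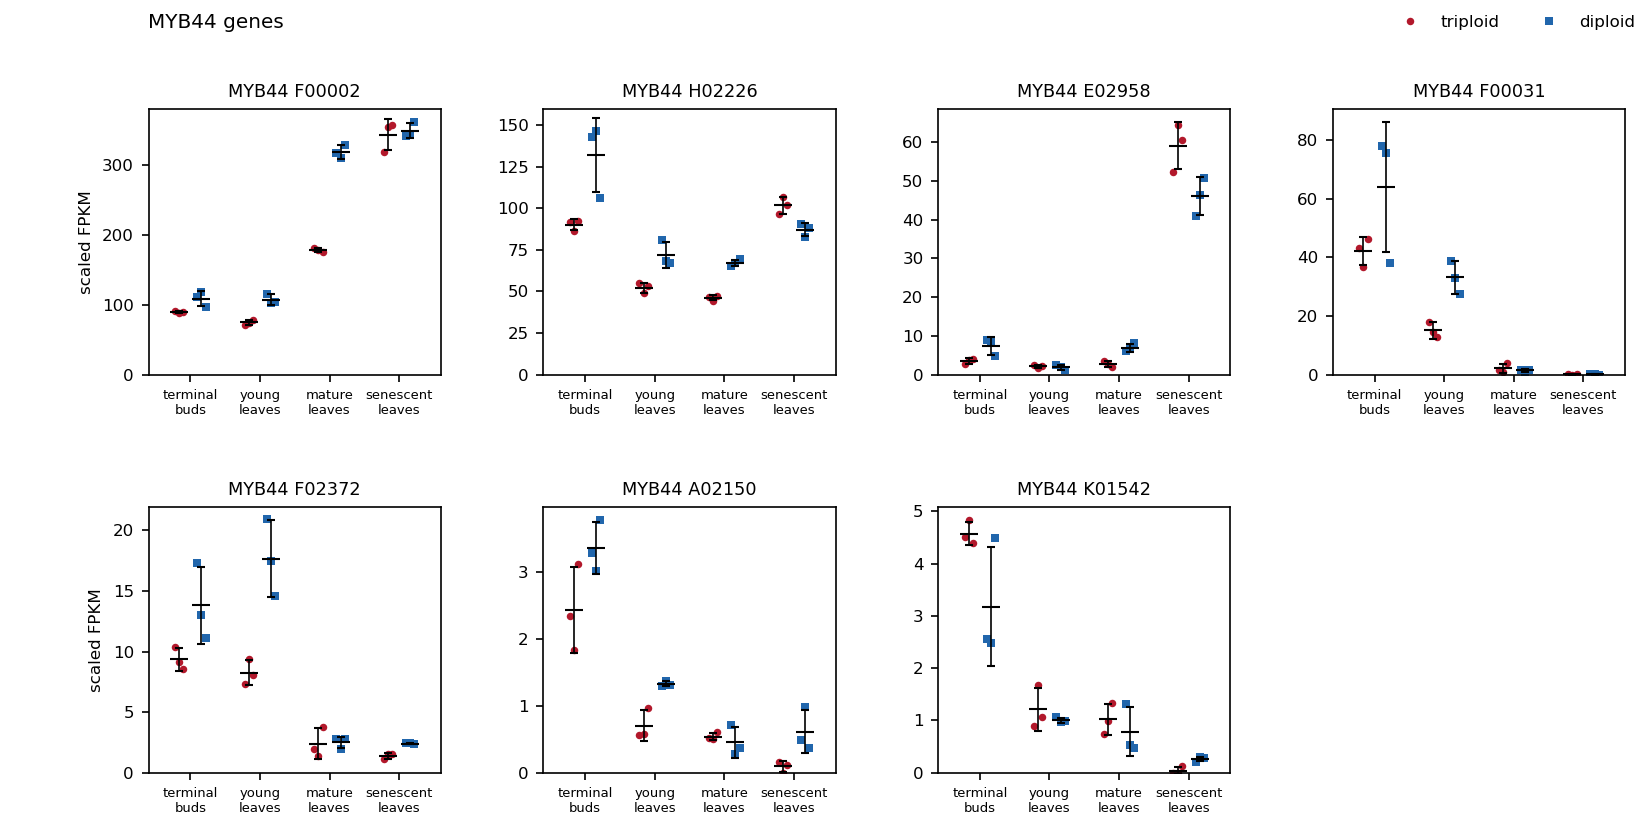
Scaled FPKM (y axis, linear, each panel on its own scale) of the 7 MYB44 genes by stage. Red circles are triploid libraries, blue squares diploid libraries, black lines means with SD (n = 3). Eucgr.F00002 and Eucgr.E02958 peak in senescent leaves, Eucgr.F00031, Eucgr.A02150 and Eucgr.K01542 in terminal buds, and the mature leaf libraries of Eucgr.F00002 lie near 178 in the triploid and near 319 in the diploid.

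MYB108, known in Arabidopsis from stamen maturation and the response to Botrytis, was nearly confined to senescent leaves in these samples. MYB108 (Eucgr.K03562) had 40.5, 35.7 and 44.1 in triploid senescent leaves and 26.5, 24.8 and 27.0 in diploid senescent leaves, and 1.03 or less in each library of the other stages. The triploid was higher in senescent leaves by 0.60 (SE 0.20, limma adjusted p = 0.013). It rose between mature and senescent leaves by 5.17 (SE 0.20, adjusted p = 3.2e-15) in the triploid and 5.64 (SE 0.20, adjusted p = 8.8e-16) in the diploid.

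MYB48 and MYB59 are close relatives, and in Arabidopsis MYB59 has been tied to cell cycle progression. MYB48 (Eucgr.J02073) had 0.242, 0.221 and 0.301 in triploid buds and 4.94, 4.04 and 3.70 in diploid buds, the largest bud difference among members at 16.6-fold in means (-2.64, SE 0.23, limma adjusted p = 1.6e-08). In young leaves it had 0.601, 0.396 and 0.530 in the triploid and 0.416, 0.323 and 0.454 in the diploid, and in senescent leaves 64.6, 50.9 and 56.0 in the triploid and 46.2, 52.8 and 71.4 in the diploid. The ploidies overlapped at both stages (0.17, adjusted p = 0.67, and 0.03, adjusted p = 0.95). The step between buds and young leaves differed between ploidies by 2.81 (SE 0.33, adjusted p = 3.4e-06). Senescent leaves stood 17.1-fold above mature leaves in triploid means (3.91, SE 0.23, adjusted p = 4.4e-12) and 28.5-fold in diploid means (4.62, SE 0.23, adjusted p = 3.1e-13).

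MYB59 (Eucgr.B02401) had 8.73, 7.19 and 7.90 in triploid mature leaves and 31.1, 35.2 and 51.7 in diploid mature leaves. In senescent leaves it had 13.8, 14.1 and 14.5 in the triploid and 34.4, 32.5 and 55.7 in the diploid. The lowest diploid library stood above the highest triploid library at both stages, with differences of -2.21 (SE 0.23, limma adjusted p = 6.6e-08) and -1.46 (SE 0.23, adjusted p = 1.3e-05). In young leaves the libraries overlapped, at 2.72, 2.76 and 2.35 in the triploid and 2.49, 2.56 and 1.51 in the diploid (0.23, adjusted p = 0.5). Mature leaves stood 3.04-fold above young leaves in triploid means and 18-fold in diploid means, and the step differed between ploidies by -2.44 (SE 0.32, adjusted p = 6.8e-06). All 9 tested mitotic genes (cyclins of the A and B type and related genes) fell between young and mature leaves in both ploidies (36.7% of all genes in the triploid and 37.9% in the diploid), by medians of -4.38 in the triploid and -4.50 in the diploid.

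**Figure D5:**
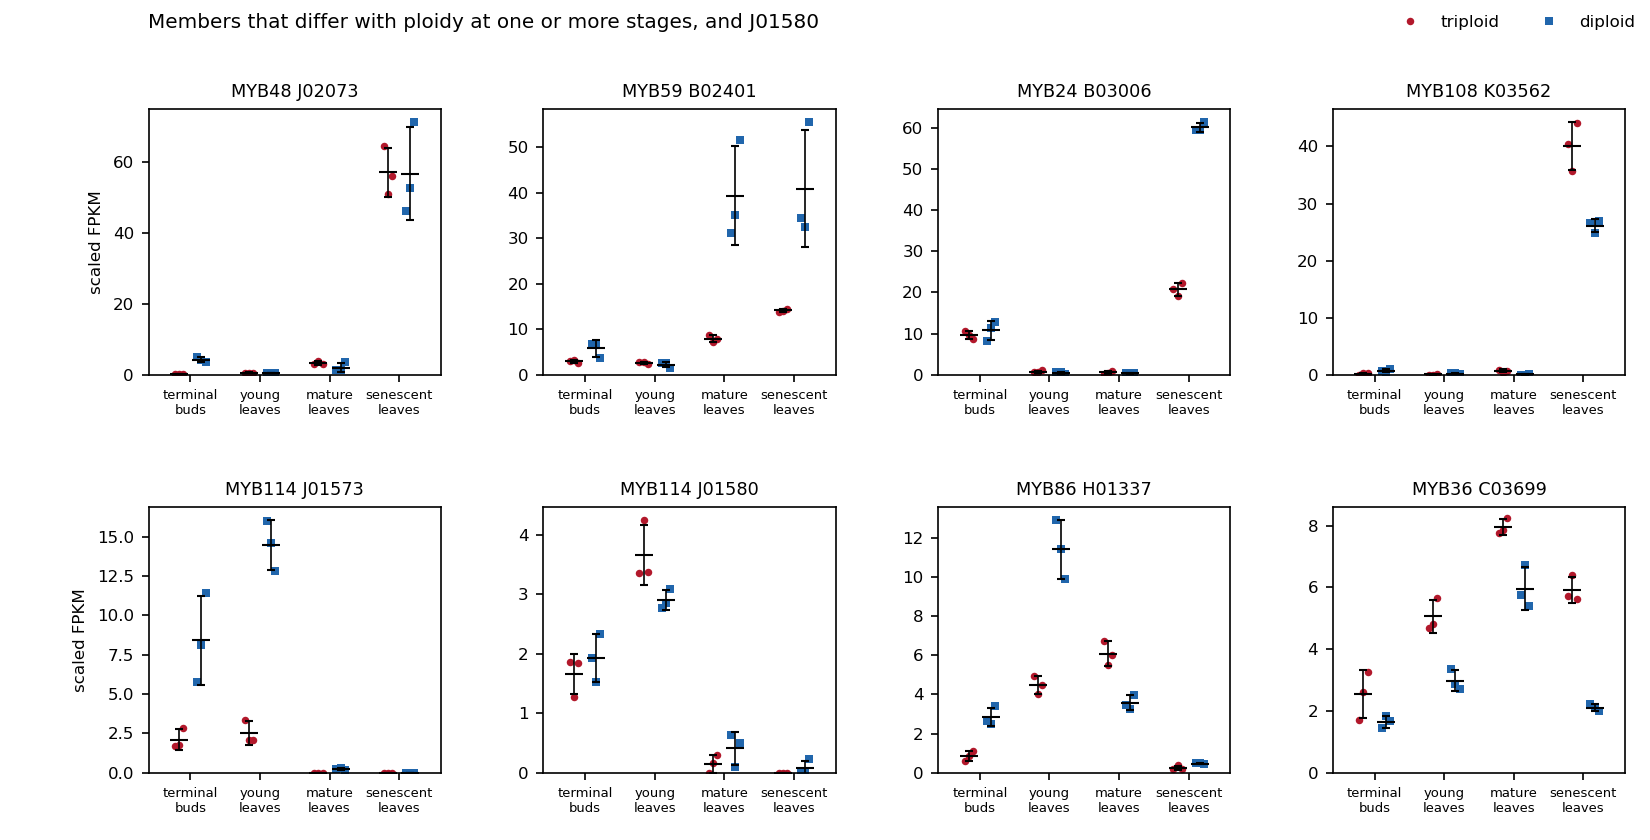
Scaled FPKM (y axis, linear, each panel on its own scale) by stage for 7 members that differ with ploidy at one or more stages and for MYB114 Eucgr.J01580. Red circles are triploid libraries, blue squares diploid libraries, black lines means with SD (n = 3). MYB59 separates the ploidies in mature and senescent leaves, MYB24 in senescent leaves, and MYB114 Eucgr.J01573 in terminal buds and young leaves, while its neighbour Eucgr.J01580 does not pass the test.

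The anther and GAMYB genes were measured in leaves, where the defining anther marker found, ABORTED MICROSPORES, stood at 0.918 scaled FPKM or less. MYB24 (Eucgr.B03006), which acts in stamens under jasmonate in Arabidopsis, had 20.9, 19.1 and 22.2 in triploid senescent leaves and 59.5, 59.4 and 61.5 in diploid senescent leaves. In terminal buds it had 10.6, 9.54 and 8.79 in the triploid and 8.30, 11.3 and 12.7 in the diploid, and no young or mature leaf library exceeded 1.01. The ploidies were far apart in senescent leaves (-1.51, SE 0.22, limma adjusted p = 4.7e-06, 2.90-fold in means) and overlapped in buds (-0.13, adjusted p = 0.65). Its rise between mature and senescent leaves was 4.39 (SE 0.22) in the triploid and 6.20 (SE 0.22) in the diploid, a difference of -1.81 (SE 0.31, adjusted p = 0.00015).

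MYB35 (Eucgr.F02756), a tapetum factor in Arabidopsis, was found in mature leaves at 0.857, 0.718 and 0.438 in the triploid and 2.55, 3.21 and 2.29 in the diploid (-1.45, limma adjusted p = 2.3e-05). GAMYB factors carry gibberellin signals in the barley aleurone. GAMYB (Eucgr.B03766) had 3.5, 4.29 and 4.10 in triploid senescent leaves and 1.69, 2.92 and 1.95 in diploid senescent leaves (0.75, SE 0.18, adjusted p = 0.001), and was lower in triploid buds (-0.75, SE 0.18, adjusted p = 0.0018). MYB51 (Eucgr.K03133), an activator of indole glucosinolate genes in Arabidopsis, turned likewise, with -0.54 in buds (adjusted p = 0.016) and 0.68 in senescent leaves (SE 0.17, adjusted p = 0.0019). Its senescent leaf libraries had 9.58, 10.3 and 10.2 in the triploid and 6.81, 6.43 and 5.07 in the diploid.

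The change between neighbouring stages was itself compared between ploidies. For young leaves against buds it differed for 10 members (21.3% of all genes), 9 with a higher value in the triploid and 1 with a lower one (10.7% and 10.7%). This count was 4 without triploid bud library 3 and 5 without diploid bud library 1. The shares of all genes without these libraries are not given here. For mature against young leaves the change differed for 23 members (45.9%), 12 higher and 11 lower (21.9% and 24%). With FPKM as deposited 16 were higher and 9 lower, and the shares of all genes at that scale are not given here. For senescent against mature leaves it differed for 13 (25.8%), 9 higher and 4 lower (13.9% and 11.9%), but the split turned to 3 higher and 5 lower in edgeR with TMM factors.

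The 4 members below the filter had few reads. MYB39 (Eucgr.B00023), a suberin factor in Arabidopsis, had 488 counts over 22 libraries and none in 10 of them, with 1.09, 1.07 and 0.892 scaled FPKM in triploid buds and 0.930, 0.610 and 0.804 in diploid buds. MYB5 (Eucgr.D00050) had 264 counts and none in 9 libraries, and MYB36 (Eucgr.C03700) had 22 counts, 18 of them in diploid mature leaf library 1. No count of WER (Eucgr.C03153) was found in any of the 22 libraries.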

How the data were processed

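RNA of 24 leaf libraries (2 ploidies, 4 stages, 3 libraries each) was sequenced on an Illumina instrument. The sources differ on how: per the labels poly(A) RNA was selected and read in pairs on a NovaSeq, whereas the study's methods name a stranded total RNA kit and a HiSeq. The submitters' processing notes name HISAT2 2.0, StringTie 1.3.0 and Bowtie 0.12.2. A mouse build is given there, but every gene identifier is of Eucalyptus grandis. Whether counting used strand is not given in the sources used here. The deposited table holds FPKM of 24 libraries and read counts of 22 libraries, both made by the authors, and 2 further count columns matched no library and were not used. FPKM of 0.0001 was read as 0.

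FPKM was divided by a median-ratio factor per library (11530 genes with at least 1 FPKM in every library). Genes with a mean of at least 0.5 scaled FPKM (19149) were tested on log2(scaled FPKM + 0.5) with limma 3.58.1 over 8 group means, with Benjamini-Hochberg adjustment and calls at an adjusted p under 0.05. edgeR 4.0.16 and DESeq2 1.42.0 on the counts, other pseudocounts (1 and 0.1), filters and scalings, a replicate block and left-out libraries were alternatives. The test was run on simulated data first.

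Named members were the 3 largest rises and falls per comparison with no overlap of libraries and a mean of at least 2 scaled FPKM in one group, the 2 largest and smallest differences of a step between ploidies, and the 2 most abundant members per role. Other members in the text were chosen after their values were seen. Members and lists were chosen with earlier results of these data known. The shoot meristem marker list matched no gene. Duplicated libraries were looked for by the mean chi-square per gene between count columns of the same group. None was found there, the lowest value being 17.6 (triploid young leaf libraries 1 and 3). Diploid senescent leaf libraries and pairs across groups were not compared, so duplicates there could not have been found. Equal replicate numbers were not used to pair the libraries in the main test, as no comparison had all 3 correlations over 0.1. This limit cannot exclude a pairing.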

Additional observations from a re-analysis of the deposited data

Results flagged for a closer look

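The steps below differed between the ploidies by a test of the difference itself (limma, log2 change in the triploid minus log2 change in the diploid). For young leaves against terminal buds, MYB48 (Eucgr.J02073) differed by 2.81 (SE 0.33, adjusted p = 3.4e-06), MYB44 (Eucgr.E02958) by 1.14 (SE 0.33, adjusted p = 0.018) and MYB5 (Eucgr.B03606) by -0.34 (SE 0.11, adjusted p = 0.032).

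For mature against young leaves, MYB86 (Eucgr.H01337) differed by 1.94, MYB114 (Eucgr.J01573) by 1.72, MYB59 (Eucgr.B02401) by -2.44 and MYB23 (Eucgr.F04423) by -1.72. The value of MYB114 (Eucgr.J01573) is no measure of a smaller fall in the triploid, since no count was found in triploid mature leaves and the fitted change depends on the pseudocount.

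For senescent against mature leaves, MYB44 (Eucgr.E02958) differed by 1.55 (SE 0.33, adjusted p = 0.0015), MYB35 (Eucgr.F02756) by 1.40 (SE 0.34, adjusted p = 0.0038), MYB24 (Eucgr.B03006) by -1.81 and MYB23 (Eucgr.C00721) by -1.49. MYB35 did not exceed 3.21 scaled FPKM in any library, and edgeR gave an adjusted p of 0.72 for it.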

How the results depend on the processing

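Of 69 values of named members, 69 kept direction and call with a pseudocount of 1, without the filter and with the filter of 1 FPKM in 3 libraries, 68 with FPKM as deposited and without the 3 libraries that stood apart, 65 with a pseudocount of 0.1, 66 in DESeq2, 64 in edgeR with RLE factors and 62 in edgeR with TMM factors. The difference between ploidies of MYB114 (Eucgr.J01573) for mature against young leaves turned to -4.27 in edgeR with TMM, -4.33 with RLE and -3.91 in DESeq2. edgeR and DESeq2 had only 1 diploid senescent leaf library and assume that it varied like the other groups. The count of members called in young leaves (17) was 11 with a pseudocount of 0.1, 11 in edgeR with either factor and 10 without the libraries that stood apart. The counts for differences of steps changed to 6 of 10 (young leaves against buds, edgeR TMM and RLE), 15 of 23 (mature against young leaves, RLE) and 8 of 13 (senescent against mature leaves, TMM, 3 higher and 5 lower). The cause was not tested.

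With single libraries left out, the counts of called members ranged over 18 to 27 (buds), 11 to 18 (young leaves), 23 to 26 (mature leaves) and 19 to 25 (senescent leaves) between ploidies, 30 to 37, 29 to 32 and 30 to 33 for the 3 steps in the diploid, and 29 to 32, 32 to 34 and 30 to 33 in the triploid. For the differences of steps they ranged over 4 to 11, 19 to 24 and 13 to 17, the first being 6 without triploid young leaf library 2 or diploid young leaf library 3. The shares of all genes called in these fits and in the other alternatives are not given here. Of 1656 named values with single libraries left out 1641 kept their call and 15 lost it. With a replicate block, 36 members were called for young leaves against buds in the diploid (35 without it) and 24 for the difference between ploidies of mature against young leaves (23 without it), and the other counts and all 69 named values kept their call. Correlations of same-numbered libraries ran between -0.278 and 0.315, and in 4 comparisons every library correlated best with its own number, a hint from the data only. Members under about 1 scaled FPKM rest on few reads, and for them the fitted changes depend on the pseudocount.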
